A study of Rattus norvegicus with 2 samples.

Results

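The 10 genes described here mark neurons, and their levels were read in C6, a rat glioma cell line: Tubb3, Map2, Mapt, Nefl, Nefm, Eno2, Gap43, Stmn2, Gad1 and Dlg4. They were chosen by name, and each was read from the array feature that the platform annotation assigns to that symbol alone, taking the feature with the highest mean level. All 10 members had such a feature, 1 each, among 18166 genes measured. RNA came from 2 single colonies of the line, No.4 and No.8, both titled undifferentiated, with 1 whole-transcript array per colony. The cells were grown with 10% serum. A treatment with CHIR99021, an inhibitor of the kinase GSK3, at 20 µM and forskolin, which raises cyclic AMP, at 100 µM for 35 days is written for both colonies, and the labels do not settle whether this RNA was taken before or after it. No other difference in strain, genotype or treatment is labelled, and each group is 1 colony. With 1 array per group there is no replicate, no test and no error on any value below, and the number of arrays limits the precision.

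Neurons hold their shape with microtubules built from tubulin, which microtubule-associated proteins such as MAP2 in dendrites and tau in axons stabilise, and with neurofilaments that widen axons. Growing axons carry GAP-43 and stathmin proteins at the growth cone, where collapsin response mediator proteins couple guidance signals to microtubules. At synapses, glutamate decarboxylase makes the transmitter GABA, and the scaffold PSD-95 anchors glutamate receptors. Many of these genes are held down outside neurons by the repressor REST. C6 cells are glial tumour cells, and such genes are used to judge how neuron-like a culture is.

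RefSeq's promoter table (build GRCr8) held an entry for 5 of the 10 members. The 250 bases before the listed start are shown for the 2 members with the largest differences toward No.4 that have an entry, Gad1 and Dlg4, and for Tubb3, the defining neuron marker, so that promoters of members in both situations can be read side by side. They are reference sequence, 5′ to 3′ on the gene's strand, from chr3:75777202-75777451 (plus strand) for Gad1, chr10:55239534-55239783 (plus strand) for Dlg4 and chr19:68365437-68365686 (plus strand) for Tubb3. Capitals mark a GC box (GGGCGG, or CCGCCC on the other strand) or a TATA box (TATAAA).
Gad1: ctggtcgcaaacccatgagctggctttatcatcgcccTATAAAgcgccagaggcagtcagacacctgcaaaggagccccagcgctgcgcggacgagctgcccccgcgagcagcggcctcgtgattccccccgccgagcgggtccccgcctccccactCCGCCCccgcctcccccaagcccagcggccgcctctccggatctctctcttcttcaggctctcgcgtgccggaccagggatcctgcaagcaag
Dlg4: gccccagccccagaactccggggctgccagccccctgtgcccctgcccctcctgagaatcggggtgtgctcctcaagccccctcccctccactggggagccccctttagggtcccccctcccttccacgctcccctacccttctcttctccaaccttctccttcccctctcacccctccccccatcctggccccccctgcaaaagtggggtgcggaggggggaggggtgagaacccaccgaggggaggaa
Tubb3: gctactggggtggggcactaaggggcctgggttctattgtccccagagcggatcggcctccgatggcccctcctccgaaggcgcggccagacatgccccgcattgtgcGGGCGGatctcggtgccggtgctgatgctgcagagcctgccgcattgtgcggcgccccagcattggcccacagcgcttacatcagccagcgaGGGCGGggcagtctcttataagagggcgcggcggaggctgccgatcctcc
The Gad1 window held 1 GC box, 93 to 88 bases before the start, and a TATA box starting 213 bases before it. The Tubb3 window held 2 GC boxes, and the Dlg4 window held none. Over 33469 promoter windows of the same length, 30.5% held a GC box and 12.9% a TATA box. The windows of all 3 were rich in G and C (68.4% for Gad1, 69.2% for Dlg4 and 68.0% for Tubb3, median 51.2% over all windows), but Gad1 held 23 CpG pairs and Tubb3 21, against 5 for Dlg4 and a median of 5. Eno2 held 24 and Map2 held 1. On both strands, the cyclic AMP response element (TGACGTCA, in 1.59% of windows), its core TGACG (18.2%), 8 and 9 letters from each part of the REST site (GGACAGCG, 0.977%, and TTCAGCACC, 0.305%) and a TCF/LEF motif (ATCAAAG, 3.15%) were not among the letters of any of the 5 windows. The core is part of the full element. None of this describes C6 DNA, and a match is letters only.

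Levels are log2 values as deposited. The floor was set at 4.33, which is the middle value of the whole table, and a gene passed it when either colony did. As a guide to background, the levels of 1184 olfactory receptor genes, silent in most cells, were used: their median was 2.74, and 99% of their values were at or under 5.67. Detection calls were not used here, so a level under 5.67 may lie near background. Features bind with different strength, so levels are compared between the colonies and not between genes. Differences are No.8 minus No.4, and a gene is called where it is past the floor and differs by at least 2-fold.

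The neuronal label fitted the data only in part. Of the 10 members, 4 were above 5.67 in both colonies (Map2, Eno2, Gad1 and Dlg4), Mapt was above it in No.8 alone, Gap43 lay between the floor and 5.67 in both, and 4 were below the floor in both (Tubb3, Nefl, Nefm and Stmn2). Of 7 neuron markers (Tubb3, Map2, Rbfox3, Snap25, Syp, Syn1 and Elavl3), 3 were past the floor and Map2 alone exceeded 5.67. Rbfox3, the neuronal nuclear antigen NeuN, was at 4.68 and 4.76 in No.4 and No.8, and the synaptic vesicle gene Syp at 5.003 and 4.929. The presynaptic fusion gene Snap25 was at 2.92 and 3.25, and the RNA-binding gene Elavl3 at 3.77 and 3.58.

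Between the colonies, 3 of the 6 members past the floor were called. Mapt was higher in No.8, and Gad1 and Dlg4 were higher in No.4. Among all 11069 genes past the floor, 5.47% were called, 2.91% higher in No.8 and 2.57% higher in No.4. The median difference over all 10 members was -0.10, beside 0.03 over all measured genes. With 6 genes in the count, and with the members chosen with earlier results of these arrays known, the share is a description.

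**Figure D1:**
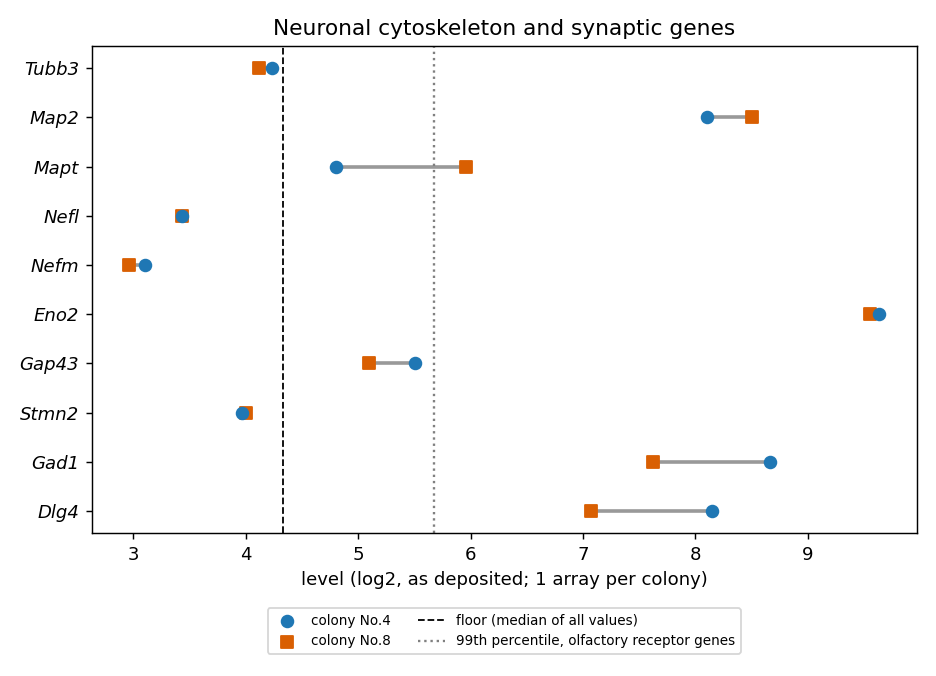
Levels of the 10 members (log2, horizontal axis) in colony No.4 (circles) and colony No.8 (squares), 1 array each, with a dashed line at 4.33 (the floor) and a dotted line at 5.67 (upper guide from olfactory receptors). Gad1 and Dlg4 lie further left in No.8, Mapt lies further right, and Tubb3, Nefl, Nefm and Stmn2 stay left of the floor in both.

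Among the microtubule genes, Tubb3, the beta-tubulin isotype used to stain neurons, was at 4.24 in No.4 and 4.12 in No.8, below the floor in both. Map2, the dendritic microtubule-associated protein, was at 8.10 in No.4 and 8.50 in No.8. It was 1.32-fold higher in No.8, and 18.2% of all genes past the floor lay at least as far in that direction. Mapt, which encodes tau, was at 4.80 and 5.96 (2.23-fold higher in No.8). Only its level in No.8 exceeded 5.67, and with both levels raised to that value at the least, called counting from 5.67 below, the difference was 1.22-fold. Of the genes past the floor, 2.13% were at least as far apart in the same direction as Mapt. Among genes with a mean level within 0.5 of its own, the central 95% of differences ran from -1.02 to 1.48, so the Mapt difference of 1.16 lay inside the range of genes of like level.

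The other beta tubulins measured were past the floor in both colonies. Tubb2a, another isotype abundant in brain, was at 8.53 and 9.71 and was the only one of the 4 relatives measured to be called (2.27-fold higher in No.8). Tubb6 was at 9.68 and 10.07, Tubb5, the isotype of most dividing cells, at 12.31 and 12.46, and Tubb2b at 4.99 and 5.25. A second, dimmer Tubb2b feature differed by 0.28, beside 0.26 for the first. All 4 were higher in No.8 and Tubb3 was not. Tubulin genes are close copies, so a single value among them is uncertain. Of the alpha tubulins, Tuba1b was at 10.51 and 10.50 and Tuba8 at 4.50 and 4.33, and 0 of the 2 past the floor were called.

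As deposited, the other microtubule-associated proteins split evenly, 7 of 14 past the floor being higher in each colony. Dclk2, a doublecortin-like kinase that binds microtubules, was at 6.69 in No.4 and 5.39 in No.8. It was 2.46-fold higher in No.4, or 2.02-fold when counted from 5.67, and was the only one called. Map1a, of dendrites and axons, was at 6.63 and 5.80, and Map7, which recruits kinesin, at 7.18 and 6.66. Map1b, an early axonal protein, was at 10.01 and 10.31, and Map4, the form found in most non-neuronal cells, at 9.44 and 9.59. Doublecortin itself, Dcx, had the same deposited value in both colonies, 2.52, below the floor.

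Neurofilament genes were below the floor in both colonies. Nefl, the light chain on which the filament is built, was at 3.44 in No.4 and 3.44 in No.8. The deposited values were identical to the last digit, as they were for 1320 of the 36685 features (3.60%). Such ties were 6.90% of genes below the floor and 1.31% of genes past it. Nefm, the medium chain, was at 3.10 and 2.97. The remaining filament proteins of neurons were dim too: the heavy chain gene Nefh at 4.04 and 3.89, Ina (alpha-internexin) at 3.46 and 3.36, and Prph (peripherin) at 3.81 and 4.02. None of these 5 genes passed the floor. The filaments of glia and progenitors were past it: Vim (vimentin) was at 12.57 and 12.60, Nes (nestin) at 9.54 and 9.94, and Synm at 5.58 and 5.62. Gfap, the astrocyte filament, was at 4.11 and 5.17, 2.07-fold apart as deposited. Both Gfap levels were under 5.67, so no difference was left when they were counted from there.

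Eno2, the neuronal form of the glycolytic enzyme enolase, was at 9.63 in No.4 and 9.55 in No.8. Of its relatives, the muscle form Eno3 was at 6.62 and 7.40 (1.71-fold higher in No.8) and Eno4 was below the floor at 3.44 and 3.68. Eno2 thus differed by 0.08 on the log2 scale, less than the other enolase past the floor, and neither was called.

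Gap43, the growth cone protein that regulates actin during axon growth, was at 5.51 in No.4 and at 5.10 in No.8, which is 1.33-fold higher in No.4. Both levels were under 5.67. Stmn2, the neuronal stathmin that frees tubulin at growth cones, was at 3.97 and 4.00, below the floor. Stmn1, the stathmin of dividing cells, was at 10.03 and 10.31, while Stmn3 (3.27 and 2.90) and Stmn4 (3.14 and 3.13), both neuronal, were below the floor. In the stathmin family only Stmn1 passed it.

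Of the other growth cone genes past the floor, 8 were higher in No.8, opposite to Gap43, and 3 were lower in No.8, as Gap43 was. Of the 13 listed genes besides Gap43, 11 were past the floor and 4 of these (36.4%) were called, all higher in No.8, against 2.91% of all genes. Counted from 5.67, 3 were called, against 1.66% of all genes higher in No.8 and 1.77% higher in No.4 by that rule. The list was written with other results of these arrays known, and nothing about it was tested.

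**Figure D2:**
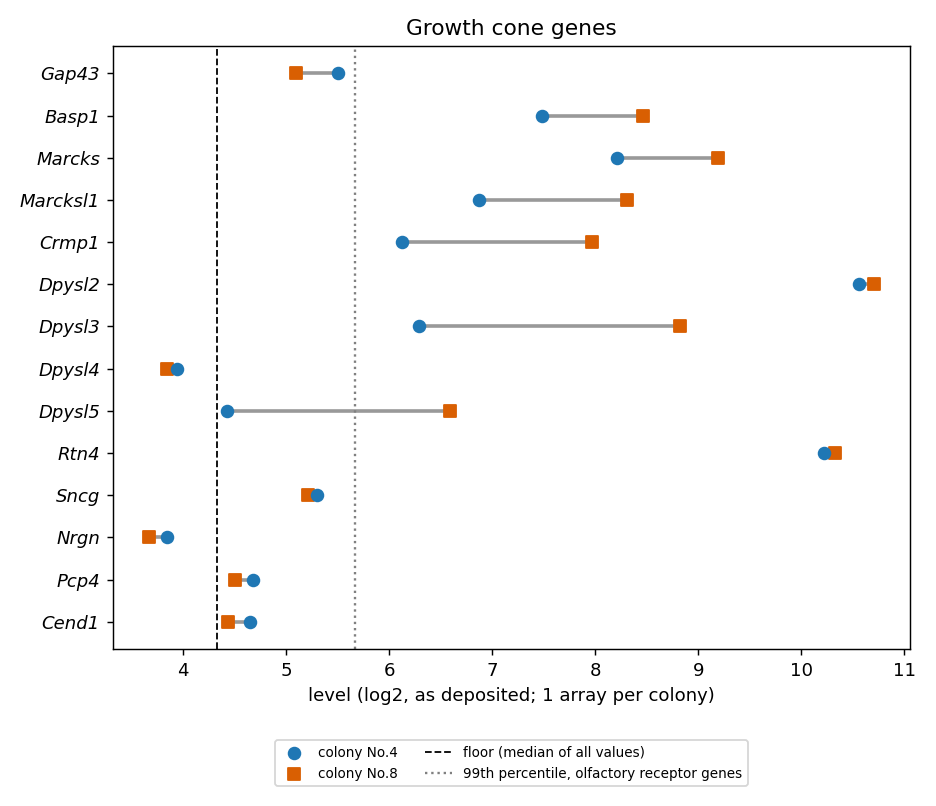
Levels (log2, horizontal axis) of the 14 growth cone genes in colony No.4 (circles) and colony No.8 (squares), 1 array each, with a dashed line at the floor and a dotted line at 5.67. Dpysl3, Dpysl5, Crmp1 and Marcksl1 lie furthest to the right in No.8 relative to No.4, and Gap43 lies further left.

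The called genes were 3 of the 5 collapsin response mediator genes and 1 of 2 MARCKS genes. Dpysl3 (CRMP4) was at 6.30 in No.4 and at 8.82 in No.8, thus 5.76-fold higher in No.8. Dpysl5 (CRMP5) was at 4.43 and 6.59, 4.47-fold as deposited and 1.89-fold counted from 5.67. Crmp1 was at 6.12 and 7.97 (3.60-fold). Dpysl2 (CRMP2), the best known tubulin-binding form, was bright in both at 10.56 and 10.70, and Dpysl4 was below the floor at 3.94 and 3.84. Marcksl1, an actin-binding substrate of protein kinase C, was at 6.87 and 8.31 (2.72-fold). Its relative Marcks (8.21 and 9.19, 1.97-fold) and Basp1 (7.48 and 8.47, 1.98-fold), a membrane protein that acts much as GAP-43 does, came close to 2-fold in the same direction. Rtn4 (Nogo) was at 10.22 and 10.33.

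Both synaptic members were higher in No.4. Gad1, the GAD67 enzyme that makes most of the GABA in neurons, was at 8.66 in No.4 and at 7.62 in No.8, a difference of 2.05-fold. Of the genes past the floor, 2.33% lay at least as far in that direction. Among genes of like level the central 95% of differences ran from -1.02 to 0.89, and the Gad1 difference of -1.04 lay just below that range. No other gene of GABA handling was called or exceeded 5.67. Gad2, the synaptic form of the enzyme, was at 2.97 and 2.80, the vesicular transporter gene Slc32a1 at 4.77 and 4.88, the GABA transaminase gene Abat at 3.43 and 3.60, and the succinate semialdehyde dehydrogenase gene Aldh5a1 at 5.39 and 4.98. Of the 7 genes measured, Gad1 alone was above 5.67.

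Dlg4, which encodes PSD-95, was at 8.15 in No.4 and at 7.07 in No.8, thus 2.11-fold higher in No.4. Of the genes past the floor, 2.04% lay at least as far in that direction, and the central 95% of genes of like level ran from -1.001 to 0.957, so the Dlg4 difference of -1.08 lay just below that range. Its relatives did not share the difference: Dlg1 (SAP97), found in most cells, was at 8.91 and 8.89, Dlg2 (PSD-93) below the floor at 2.98 and 2.89, and Dlg3 (SAP102) at 3.77 and 4.43.

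Partners of PSD-95 were mostly dim. Of 24 postsynaptic genes measured, 11 were past the floor, and 1 was called. Nlgn3, an adhesion molecule that binds PSD-95 from the postsynaptic membrane, was at 4.54 in No.4 and at 6.67 in No.8 (4.39-fold as deposited, just under 2-fold counted from 5.67), opposite to Dlg4. Gria3, an AMPA receptor subunit, was bright in both at 9.05 and 8.14 and was 1.88-fold higher in No.4. Homer3, another scaffold, was at 6.52 and 6.78, and Camk2b at 4.53 and 4.84. The NMDA receptor genes Grin1 (3.38 in each colony) and Grin2a (3.39 in each) were below the floor, with identical values on both arrays.

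Of 28 presynaptic genes measured, 14 were past the floor, 7 of them higher in No.8, 6 higher in No.4 and 1 equal. Syt11, a synaptotagmin that does not bind calcium, was at 6.40 and 7.92 (2.88-fold higher in No.8) and was the only one called. Sncb (beta-synuclein) was at 4.69 and 5.28, the vesicle protein gene Sv2a at 5.92 and 6.48, and Vamp2 (synaptobrevin) at 6.92 and 7.35. Syn1 (synapsin) was below the floor at 3.48 and 3.70.

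**Figure D3:**
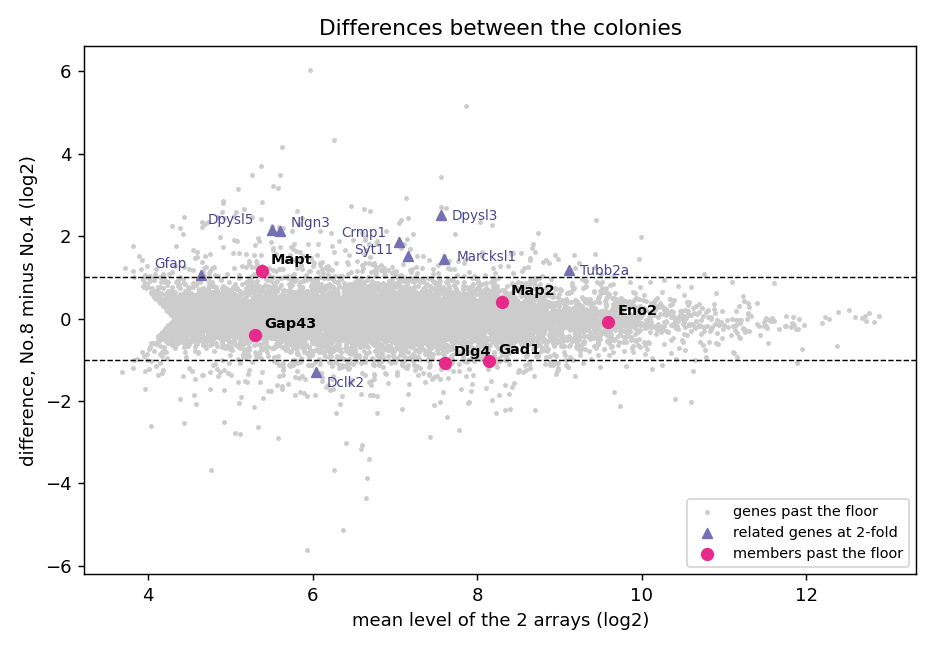
Difference between the colonies (log2, No.8 minus No.4) against the mean level of both arrays, for the 11069 genes past the floor (grey), the 6 members among them (circles) and related genes called at 2-fold (triangles). Dashed lines mark 2-fold; Gad1 and Dlg4 lie just below the lower line, and most called related genes lie above the upper one.

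Over all 16 lists of related genes, members left out, 108 of 168 measured genes were past the floor. Of these, 8 were called higher in No.8 (7.41%) and 1 higher in No.4 (0.926%), beside the 2.91% and 2.57% of all genes. The 8 were Tubb2a, Gfap, Dpysl3, Dpysl5, Crmp1, Marcksl1, Nlgn3 and Syt11, and the 1 was Dclk2. Of these 9 genes, none is from the GABA or DLG lists of Gad1 and Dlg4. Members left out, only 2 genes of each of those lists were past the floor, too few to read anything from.

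No listed regulator of the neuronal programme was called, beside 5.47% of all genes past the floor. With so small a share, counts of 0 are common in lists this short, and they are a description. Rest, the repressor, was at 7.87 in No.4 and 7.75 in No.8, and 0 of the 10 measured genes of its complex were called. Hdac1, a histone deacetylase of the complex, was at 8.18 and 8.66, the phosphatase gene Ctdsp1 at 6.88 and 7.35, the corepressor gene Rcor2 at 6.549 and 6.997, and Ctdspl at 6.003 and 6.373. Of 22 neurogenic transcription factors, 12 were past the floor and 0 were called. The largest differences were those of the interneuron factor Dlx1 (5.61 and 6.43), Isl1 (4.04 and 4.54), Dlx2 (4.92 and 5.42) and Sox4 (8.11 and 8.58). All 4 were higher in No.8. Dlx1 in No.4, and Isl1 and Dlx2 in both colonies, were under 5.67. Dlx1 is known to act on Gad1, and a link between their levels was not tested. Neurod1 was below the floor at 3.46 and 3.49. Among RNA-binding proteins, 0 of 9 past the floor were called, with Rbfox1, a splicing factor, at 8.66 and 8.00, Elavl2 at 4.28 and 4.96 and Ptbp1, the splicing repressor of non-neuronal cells, at 9.45 and 9.57.

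Kinases that phosphorylate tau and MAPs were also called in 0 of 11 cases, beside the same 5.47% of all genes past the floor. Gsk3b, a target of CHIR99021, was at 9.27 and 9.68 and Gsk3a at 8.31 and 8.65. Cdk5r1, the activator of CDK5 in neurons, was at 4.67 and 5.25, Mapk8 (JNK1) at 6.65 and 7.05, and Mark2 at 6.21 and 6.56.

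**Figure D4:**
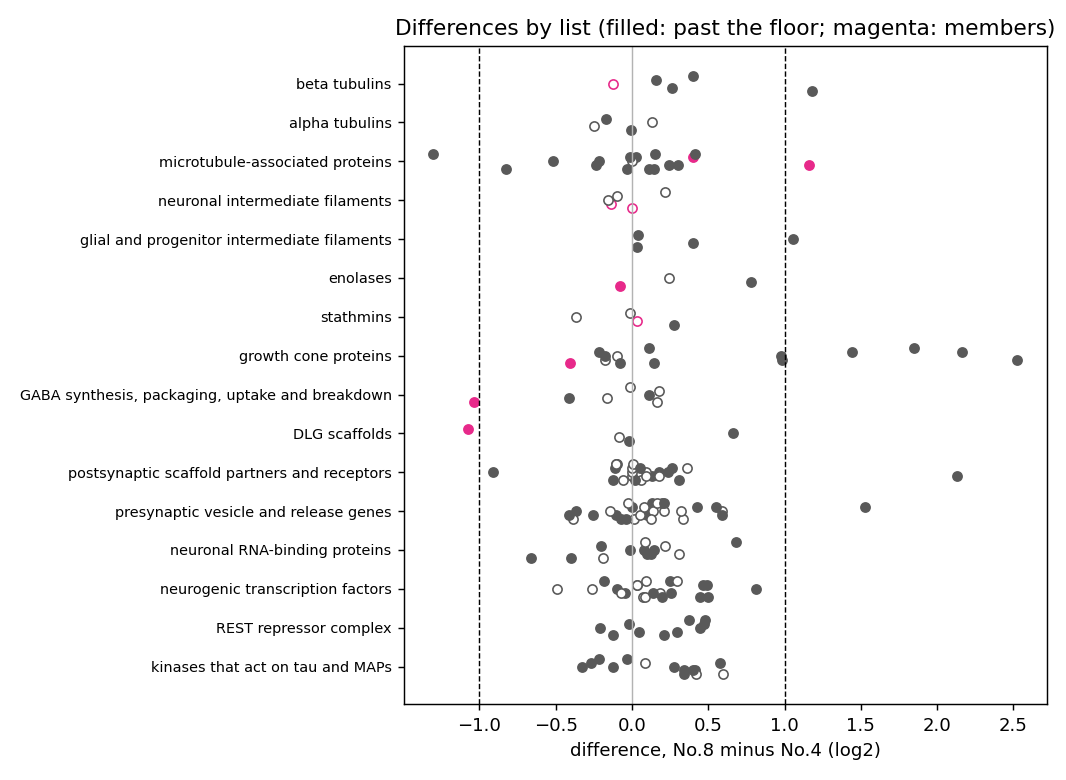
Difference between the colonies (log2, No.8 minus No.4) of each measured gene in 16 lists, 1 point per gene; filled points are past the floor, open points below it, and members are magenta. Dashed lines mark 2-fold. Growth cone genes reach furthest to the right, and Gad1 and Dlg4 are the leftmost points of their lists.

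Markers of other cell types differed between the same arrays. Of 9 oligodendrocyte lineage markers measured, 8 were lower in No.8, the direction of Gad1 and Dlg4, and Cnp (8.49 and 8.97) was higher. Their summed linear level was 2687 in No.4 and 2048 in No.8. Pdgfra (10.24 and 9.53) and Sox10 (9.69 and 9.36), neither of them called, made up most of it. Olig2 (6.36 and 4.22) and Cspg4 (6.37 and 4.62) were called as deposited. Counted from 5.67, Olig2 was 1.61-fold and Cspg4 1.62-fold higher in No.4, and neither was called. Of 6 fibroblast markers, 5 were higher in No.8, the direction of the called growth cone genes. Their summed level was 453 and 1858, of which Col1a1 (8.25 and 10.64) made up most. Col1a1 and Pdgfrb (6.48 and 7.55) were called; neither Lum nor Dcn passed the floor. Schwann and neural crest markers went both ways, with 2 of 6 higher in No.8 and a summed level of 2447 and 3036. Ngfr (7.05 and 9.32) and Pmp22 (9.14 and 10.17) were called higher in No.8 and Tfap2a (8.23 and 7.16) higher in No.4, while Egr2 was at 9.21 and 8.69. Astrocyte markers also went both ways, with 5 of 8 higher in No.8 and a summed level of 1104 and 1028. Those 5 (Gfap, Aqp4, Slc1a2, Slc1a3 and S100b) summed to 360 and 440, with Aqp4 and Slc1a3 below the floor. Gja1, Aldoc and Sox9 were lower in No.8. Gja1 (connexin 43, 7.99 and 6.86) was called higher in No.4 and Gfap higher in No.8. Of 8 microglia and macrophage markers, 4 were higher in each colony, with a summed level of 171 and 146. Tmem119 (6.48 and 6.19) and Cd68 (4.62 and 4.07) were past the floor, and the defining markers Ptprc, Cx3cr1, P2ry12, Itgam and Aif1 were below it. The 7 neuron markers summed to 384 and 472, mostly Map2. The part of any of these in the differences of the members was not tested, and fewer cells of a type cannot be told apart from less RNA per cell.

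In RefSeq's gene order, Nefl and Nefm are neighbours. Around Gad1, Mapt, Eno2, Gap43 and Dlg4, 0 of the 10 nearest genes past the floor (5 on each side) were called. Among all genes past the floor the share was 5.47%, so 0 of 10 is a common count. The median difference of these neighbours was 0.02 for Gad1, -0.21 for Dlg4 and 0.09 for Mapt. For Eno2 it was 0.23. Around Map2, 1 of 10 neighbours was called (higher in No.4), and around Tubb3 also 1 of 10 (higher in No.8). Around Stmn2, and around Nefl and Nefm, 1 of 10 was called higher in No.8 and 1 higher in No.4.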

How the data were processed

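Total RNA of each colony was labelled with biotin by a whole-transcript GeneChip kit, per the labels' protocols. The deposited table gives 1 log2 level for each of 36685 features and colony, used as deposited by the authors. Its scale is not stated; base 2 was inferred because values reach 13.3, and no source used here gives the background correction, normalization or summarization. Quartiles were nearly equal (3.17 and 3.16, 4.34 and 4.31, 6.37 and 6.37 in No.4 and No.8), so nothing was rescaled. Of the features, 18511 had exactly 1 symbol in the platform annotation; 575 with several, and all without one, were left out. Where a gene had several features, the one with the highest mean level was used. Identifiers of 18394 features were in the RefSeq gene table of GRCr8, used for gene order only. Promoter sequences are RefSeq's; their GC and TATA motifs were added after the data were seen, and 1 REST motif was shortened by 2 letters.

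The members, the 16 lists of related genes and the cell type markers were chosen with earlier results of these data known. Of 193 related genes listed, 168 were measured, and the others are not analysed here. Named are all members, from each list every gene called at 2-fold and up to 4 with the largest difference past the floor, fixed relatives and fixed cell type markers; other names (Dcx, Grin1, Grin2a, Syn1, Neurod1, Ptbp1, Gsk3a, Eno4, Cnp, Dpysl2, Dpysl4, Marcks, Rtn4 and Abat) were chosen after their values were seen. Calls are size rules, not tests. The counting was tested on simulated data with a narrower spread than these arrays and planted differences larger than those of the called members. That checks the counting only, not how reliable calls near 2-fold are. Python 3.11.15, pandas 2.3.3, NumPy 2.4.6 and statsmodels 0.14.6 were used.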

Additional observations from a re-analysis of the deposited data

How the results depend on the processing

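The 13 alternatives changed the scaling, the floor, the treatment of dim values, the feature per gene and the size of a call; no array could be left out, since each colony has 1, and no paired analysis was possible because each colony has 1 array. Subtracting the median difference, quantile normalization, a loess on level, no floor, a floor at the lower quartile and the other choices of feature kept each count of members at 1 higher in No.8 and 2 higher in No.4. The choices of feature could not change these counts, since each member has 1 feature. A lower or absent floor could not either, since the largest difference among members below the floor was -0.14 (Nefm). The 1 member higher in No.8, Mapt, was lost (0) with a floor at the upper quartile, with levels raised to the olfactory 99th percentile, with 64 added on the linear scale and at 3-fold. The 2 members higher in No.4, Gad1 and Dlg4, became 0 with 64 added (differences -0.84 and -0.81) and at 3-fold. Of the other 11 alternatives, which kept them, only median subtraction, quantile normalization and the loess could have changed these calls. The rest could not: both genes have 1 feature and lie above 5.67 and the upper quartile in both colonies, and 1.5-fold is a looser rule. The median difference of the members was 0 when dim levels were raised to the floor, or to the olfactory 99th percentile. Related genes higher in No.8 were 5 with levels raised to the olfactory 99th percentile, 5 with 64 added, 15 at 1.5-fold and 4 at 3-fold, against 8. With the loess, a floor at the upper quartile or levels raised to the floor, the related genes higher in No.8 were 7, Gfap being lost. Related genes higher in No.4 were 0 with 64 added, 4 at 1.5-fold and 0 at 3-fold, against 1. Growth cone genes higher in No.8 ranged from 3 to 6. No called member or related gene reversed under these alternatives, though the Gfap difference became 0 with levels raised to the olfactory 99th percentile. Only the rescalings could change the sign of these genes, and they moved the differences by far less than the size of a call. The lack of a reversal is therefore no sign of stability. The lack of replicates and of detection calls limits all of these values, most for levels under 5.67.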
